A study of Mus musculus with 3 samples.

Results

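The genes described here are 8 mouse genes of the let-7 axis, often called oncofetal because they are active in the embryo and in many tumours and are quiet in most adult tissues: the chromatin protein genes Hmga1 and Hmga2, the let-7 inhibitor genes Lin28a and Lin28b, the messenger RNA-binding protein genes Igf2bp1, Igf2bp2 and Igf2bp3, and Trim71. They were picked by name, through their Entrez numbers, from 17997 genes listed in at least 1 of 3 gene tables, and all 8 were found in every table. The choice was made with earlier results of the same libraries known, so the values below describe these genes and no test was made on them.

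The tables come from RNA sequencing of 46C cells, a mouse embryonic stem cell line of strain 129 with a fluorescent reporter gene placed at Sox1, grown in medium with serum and leukemia inhibitory factor on gelatin. Cells that had received the empty PB vector were collected at passage 2 (empty vector P2), and cells that had received Lef1 (PB-Lef1) were collected at passage 2 (Lef1 P2) and passage 5 (Lef1 P5). Each group is 1 library, whose expected counts sum to 9170554 to 9380813. No p-value is given, and the 95% intervals in parentheses cover counting error only, not the difference between cultures. The sources do not say which promoter drives Lef1 or whether the cells were a clone or a mixed culture, and passage and Lef1 cannot be told apart where Lef1 P5 is set against empty vector P2.

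let-7 is a family of small RNAs that rises as embryonic cells differentiate and lowers the messenger RNAs that carry matches to its seed. LIN28 proteins bind let-7 precursors and block their maturation, with a cold shock domain and a pair of zinc knuckles, and LIN28A brings in enzymes that add uridines to the precursor and mark it for decay. HMGA1 and HMGA2 bind AT-rich DNA through AT hooks and shape chromatin. IGF2BP proteins bind and stabilise messenger RNAs through KH domains, and TRIM71 is a TRIM-NHL protein that represses messenger RNAs and has ubiquitin ligase activity. Lin28, Igf2bp, Hmga2 and Trim71 messages are themselves let-7 targets, so let-7 and several of these genes repress each other.

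The seed that links these genes is shared by 10 distinct mature sequences of the mouse let-7 family in RefSeq (GRCm38.p6). The 4 printed here differ outside the seed, which is bases 2 to 8 and is printed in capitals, 5′ to 3′. They lie at chr13:48538239-48538260 on the minus strand, chr13:48536078-48536099 on the minus strand, chr17:17830366-17830387 on the plus strand and chr9:106178846-106178867 on the plus strand. The letters of let-7a also occur in the precursor of Mirlet7a-2, at chr9:41536716-41536811 on the plus strand.
let-7a: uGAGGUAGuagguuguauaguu
let-7d: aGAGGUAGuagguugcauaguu
let-7e: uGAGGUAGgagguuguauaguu
let-7g: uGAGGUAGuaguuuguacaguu

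LIN28 is known to recognise the letters GGAG in the loop of a let-7 precursor. Between the arms of the precursor, 9 of the 12 hairpins of the let-7 and miR-98 genes held GGAG. The hairpins without it were those of Mirlet7b, Mirlet7c-2 and Mir98. One hairpin of each kind is shown, with GGAG in capitals. Mirlet7g lies at chr9:106178840-106178927 on the plus strand and Mirlet7b at chr15:85707319-85707403 on the plus strand.
Mirlet7g: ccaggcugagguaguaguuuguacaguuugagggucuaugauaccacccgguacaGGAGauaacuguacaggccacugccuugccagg
Mirlet7b: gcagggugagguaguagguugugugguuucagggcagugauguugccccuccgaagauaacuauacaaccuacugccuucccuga

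All 8 members carry the complement of the seed, CTACCTC, in the 3′ untranslated region (UTR) on the sense strand. The longest 3′ UTR of each gene was taken from the GENCODE transcripts of GRCm38. Of 16313 listed genes with such a UTR, 1630 (9.99%) held at least 1 match and 11 (0.0674%) held at least 4. Hmga2, Lin28b, Igf2bp1 and Trim71 each held 4, Lin28a held 2, and Hmga1, Igf2bp2 and Igf2bp3 each held 1. Since the members were taken as let-7 axis genes, these counts describe them and are no finding about them. A long UTR also gives more room for a match: those of Igf2bp1 and Trim71 are 6337 and 5512 bases, against a median of 1084 bases over all genes. The Trim71 transcript used for the sites is 9332 bases long, against a deposited length of 5197, so some of its sites may lie outside the message the authors counted.

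The matches followed by an A, the form known to be repressed most strongly by let-7, made up 13 of the 21 in the members. Trim71 had 4 of these, Igf2bp1 3, Lin28a 2, and Hmga2, Lin28b, Igf2bp2 and Igf2bp3 1 each. Shown are the 4 matches of Hmga2, the member with the largest difference between libraries, then the first match of Lin28b and the matches of Igf2bp2 and Igf2bp3. Capitals mark the match, with the A where it is present. In Hmga2 the matches start 58, 1295, 1733 and 2591 bases after the stop codon, and those of Lin28b, Igf2bp2 and Igf2bp3 start at 36, 1313 and 548 bases. Hmga2 and Lin28b lie on chromosome 10, Igf2bp2 on chromosome 16 and Igf2bp3 on chromosome 6 of GRCm38, all on the minus strand, and the sites are printed 5′ to 3′ along the message.
Hmga2 at 58: ggcgccgacattcaatttCTACCTCA
Hmga2 at 1295: aatccccactcctcaataCTACCTCt
Hmga2 at 1733: ttcctgatttgcaaggaaCTACCTCc
Hmga2 at 2591: tacaatcaaaacacactaCTACCTCt
Lin28b at 36: ttcacccgggcgggaagtCTACCTCA
Igf2bp2 at 1313: aaaacacacaaataaaagCTACCTCA
Igf2bp3 at 548: acgtgcatttttactcaaCTACCTCA

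**Figure D1:**
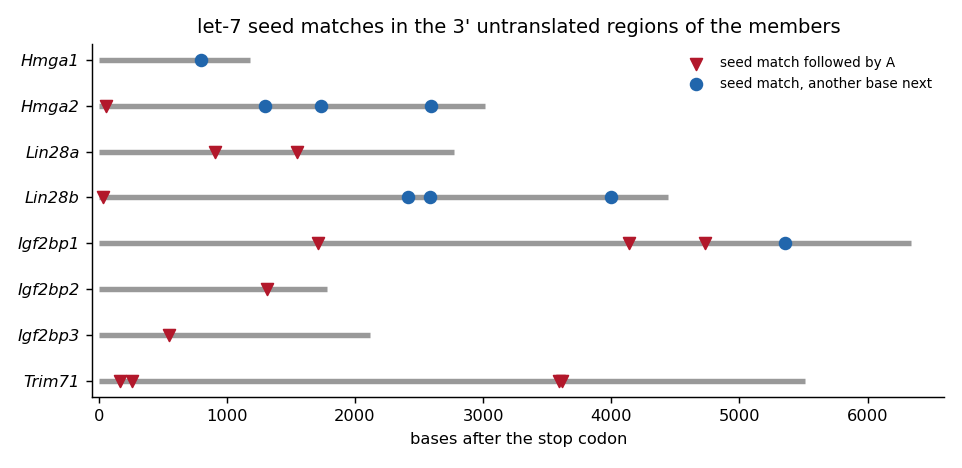
Position of each CTACCTC match in the 3′ UTR of the 8 members, drawn to scale in bases after the stop codon; triangles are matches followed by an A and circles the others. The first match of Hmga2 and of Lin28b lies within 58 bases of the stop codon, and the remaining 3 of each lie farther along and lack the A.

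Hmga2 differed most between the libraries. Its level was 9.86 FPKM (8.89 to 10.9) with the empty vector, 28.4 FPKM (26.7 to 30.1) with Lef1 at P2 and 61.9 FPKM (59.5 to 64.4) with Lef1 at P5, where FPKM is fragments counted per length of transcript and per size of library. These levels rest on 380, 1086 and 2428 expected reads. The 3 counting intervals do not overlap, and both Lef1 libraries lay above the empty-vector library. By level, Hmga2 held place 6398 among the listed genes of empty vector P2 and place 1287 with Lef1 at P5. In bulk RNA, more cells of a type and more RNA per cell cannot be told apart.

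As a ratio of FPKM, Hmga2 was 2.88-fold (2.56 to 3.25) higher with Lef1 at P2 and 6.28-fold (5.63 to 7.02) higher with Lef1 at P5 than with the empty vector. Lef1 P5 was 2.18-fold (2.03 to 2.34) above Lef1 P2. A gene was called higher or lower where the log2 ratio of (FPKM + 1) was at least 1 in size, that is 2-fold, with at least 3 FPKM and 20 expected reads in the higher library. Hmga2 was called higher in each of the 3 comparisons, with log2 ratios of 1.44, 2.53 and 1.10. In Lef1 P5 against empty vector P2 its ratio was number 5 from the top of 10121 genes that passed the level filter.

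A pseudogene of Hmga2, Hmga2-ps1, has a row of its own. It was at 3.28 FPKM (2.38 to 4.4) with the empty vector, 6.63 FPKM (5.32 to 8.17) with Lef1 at P2 and 11.3 FPKM (9.56 to 13.2) with Lef1 at P5, the same order of libraries as Hmga2. Its log2 ratio was 0.83 with Lef1 at P2, not called, and 1.52 with Lef1 at P5, called higher. The sources used here do not give how reads that match both loci were assigned, so the levels of Hmga2 and of its pseudogene may share reads, although the expected reads of both were whole numbers in every library.

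Hmga1, the other AT-hook gene, was at 85.8 FPKM (81.2 to 90.6) with the empty vector, 69.2 FPKM (65.1 to 73.5) with Lef1 at P2 and 92.0 FPKM (87.3 to 96.9) with Lef1 at P5. It was lowest with Lef1 at P2 and was called in no comparison, with log2 ratios of -0.31, 0.10 and 0.41. The level is uncertain. A near-identical copy, Hmga1b, was listed at 431, 282 and 442 FPKM, 4.08 to 5.03 times Hmga1, and the expected reads of both genes were not whole numbers, as they are when reads are split between loci or isoforms. The sum of the pair was 517 FPKM with the empty vector, 352 FPKM with Lef1 at P2 and 534 FPKM with Lef1 at P5, again lowest with Lef1 at P2.

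The makeup of the Hmga messages differed between libraries. Hmga2 was 10.3% of the summed FPKM of Hmga1 and Hmga2 with the empty vector, 29.1% with Lef1 at P2 and 40.2% with Lef1 at P5. With Hmga1b added to the sum these shares were 1.87%, 7.48% and 10.4%. Both ways of counting put the libraries in the same order, while the share itself depends on which of the Hmga1 copies produced the reads.

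**Figure D2:**
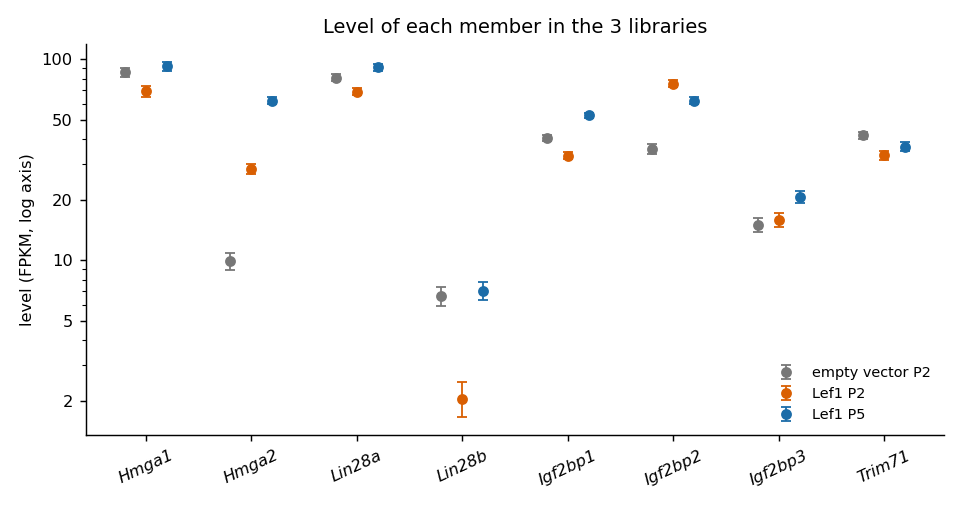
Level of the 8 members in each library (FPKM, log axis); points are the deposited values and bars the 95% counting intervals, with 1 library per group. Hmga2 is at 9.86, 28.4 and 61.9 FPKM, Lin28b is low with Lef1 at P2 alone, and Igf2bp2 is higher in both Lef1 libraries.

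The 2 Lin28 genes differed widely in level. Lin28a was at 80.8 FPKM (77.7 to 84.0) with the empty vector, 68.9 FPKM (66.0 to 71.9) with Lef1 at P2 and 90.9 FPKM (87.6 to 94.2) with Lef1 at P5, from 2163 to 2926 expected reads. Lin28a was called in no comparison, with log2 ratios of -0.23 for Lef1 P2 and 0.17 for Lef1 P5 against empty vector P2 and 0.39 between the Lef1 libraries.

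Lin28b was at 6.60 FPKM (5.90 to 7.36) with the empty vector, 2.03 FPKM (1.65 to 2.47) with Lef1 at P2 and 7.04 FPKM (6.33 to 7.81) with Lef1 at P5. The interval of Lef1 P2 lies apart from both others, while those of empty vector P2 and Lef1 P5 overlap. Lin28b was 3.25-fold (2.59 to 4.11) lower with Lef1 at P2 than with the empty vector (log2 ratio -1.33, called lower). With a pseudocount of 5 FPKM this log2 ratio was -0.72, and that of Lef1 P5 against Lef1 P2 was 0.78, and neither was then called. In Lef1 P5 it was 1.07-fold (0.915 to 1.24) the empty-vector level (log2 ratio 0.08, not called) and 3.47-fold (2.77 to 4.37) the level of Lef1 P2 (log2 ratio 1.41, called higher). The level with Lef1 at P2 rests on 100 expected reads, the fewest of any member.

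Lin28a messages outnumbered those of Lin28b in all 3 libraries, most with Lef1 at P2. On the FPKM scale Lin28a was 12.2 times (10.9 to 13.8) Lin28b with the empty vector, 33.95 times (27.8 to 41.9) with Lef1 at P2 and 12.9 times (11.6 to 14.5) with Lef1 at P5. Because Lin28a makes up most of the pair, the summed level of 87.4 FPKM with the empty vector compared with 70.9 FPKM with Lef1 at P2 and 97.9 FPKM with Lef1 at P5.

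Among the Igf2bp genes, Igf2bp2 differed most. IGF2BP2 is the family member that also persists in some adult tissues. It was at 35.7 FPKM (33.7 to 37.7) with the empty vector, 75.5 FPKM (72.6 to 78.4) with Lef1 at P2 and 62.2 FPKM (59.6 to 64.8) with Lef1 at P5. Both Lef1 libraries were above the empty-vector library, and Lef1 P2 was the higher of them as deposited.

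Igf2bp2 was 2.12-fold (1.98 to 2.26) higher with Lef1 at P2 and was called higher, with a log2 ratio of 1.06. That call sits just above the threshold: the log2 ratio was 0.91 with median-of-ratios or TMM (trimmed mean of M values) scaling and 0.98 with a pseudocount of 5 FPKM, and the gene was then not called. In Lef1 P5 it was 1.74-fold (1.63 to 1.87) higher, at a log2 ratio of 0.79 that stayed under the threshold. In Lef1 P5 against Lef1 P2 the log2 ratio of Igf2bp2 was -0.28 as deposited, -0.08 with median-of-ratios and -0.10 with TMM. The size of that difference thus depends on the scaling.

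Igf2bp1, the member that shields the coding region of Myc messages from decay, was at 40.5 FPKM (39.1 to 42) with the empty vector, 33.0 FPKM (31.8 to 34.3) with Lef1 at P2 and 52.5 FPKM (50.9 to 54.1) with Lef1 at P5. It was lowest with Lef1 at P2 and highest with Lef1 at P5, 1.59-fold (1.51 to 1.67) between them, and was not called in any comparison. Igf2bp3 was the least abundant of the family, at 14.9 FPKM (13.7 to 16.2), 15.9 FPKM (14.7 to 17.2) and 20.7 FPKM (19.3 to 22.1). The intervals of empty vector P2 and Lef1 P2 overlap, and Igf2bp3 was not called. Its log2 ratio with Lef1 at P2 was 0.09 as deposited and -0.06 with median-of-ratios or TMM scaling, so no direction is given there.

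The leading member of the Igf2bp family thus differed between libraries. Igf2bp1 made up 44.5% of the summed FPKM and Igf2bp2 39.1% with the empty vector. In Lef1 P2 Igf2bp2 made up 60.7% and Igf2bp1 26.6%, and with Lef1 at P5 the shares were 45.9% and 38.8%. Per length, the ratio of Igf2bp2 to Igf2bp1 was 0.880 (0.823 to 0.939) with the empty vector, 2.28 (2.16 to 2.41) with Lef1 at P2 and 1.18 (1.12 to 1.25) with Lef1 at P5, and the 3 intervals do not overlap. The family's summed level was 91.1, 124 and 135 FPKM.

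**Figure D3:**
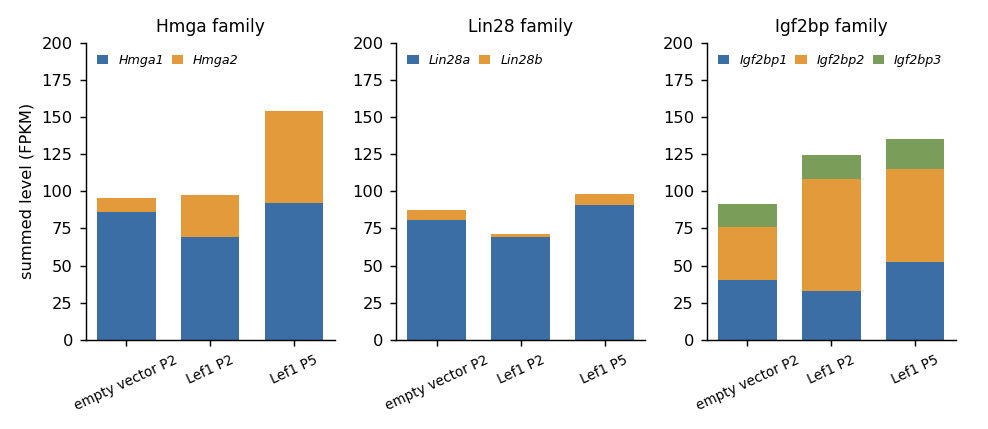
Summed level of the Hmga, Lin28 and Igf2bp families (FPKM, bars from 0), stacked by gene, for the 3 libraries. Hmga2 takes 10.3%, 29.1% and 40.2% of its pair, and Igf2bp2 takes 39.1%, 60.7% and 45.9% of its family; Hmga1b is not included.

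Trim71 was at 41.7 FPKM (39.9 to 43.6) with the empty vector, 33.3 FPKM (31.7 to 35) with Lef1 at P2 and 36.7 FPKM (35 to 38.5) with Lef1 at P5. It was the member with the lowest log2 ratio in Lef1 P5 against empty vector P2, at -0.18, and the only one of the 8 under 0 there. In Lef1 P2 the log2 ratio was -0.32, and Trim71 was not called in any comparison.

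Read together in Lef1 P2 against empty vector P2, 2 of the 8 members were called higher (Hmga2 and Igf2bp2), 1 lower (Lin28b) and 5 were not called. Over all 10651 genes that passed the level filter, 6.49% were called higher and 1.82% lower, 8.31% in all. In Lef1 P5 against empty vector P2, 1 member (Hmga2) was called higher and 0 lower, where 1.4% of 10121 genes were higher and 1.28% lower, 2.69% in all. Between the Lef1 libraries, 2 members were higher (Lin28b and Hmga2) and 0 lower, where 1.88% of 10593 genes were higher and 6.86% lower, 8.74% in all. All 8 members passed the filter in each comparison, Lin28b in the comparisons with Lef1 P2 through the other library. With so few members, and members chosen with these values known, the counts are a description.

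The median log2 ratio of the 8 members was -0.26 in Lef1 P2 against empty vector P2, 0.27 in Lef1 P5 against empty vector P2 and 0.40 in Lef1 P5 against Lef1 P2. Over the 12894 genes that reached 1 FPKM in any library the medians were 0.11, -0.02 and -0.17. The comparisons share libraries and are not independent. Relative to these medians Hmga2 had log2 ratios of 1.32, 2.55 and 1.27, Lin28b of -1.44, 0.10 and 1.58, and Igf2bp2 of 0.95, 0.81 and -0.11. Rescaling by median-of-ratios or TMM shifted the median of all genes by -0.14 in Lef1 P2 against empty vector P2 and by 0.17 and 0.16 in Lef1 P5 against Lef1 P2.

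Several members that were not called still lay outside counting error. In Lef1 P2 the interval of the FPKM ratio to empty vector P2 was below 1 for 5 members (Hmga1, Lin28a, Lin28b, Igf2bp1 and Trim71) and above 1 for 2 (Hmga2 and Igf2bp2). Over all genes that passed the filter these shares were 27.2% and 41%, or 68.2% either way, so such an interval is common at this depth and says nothing about other cultures. In Lef1 P5 against Lef1 P2 the interval, on deposited values, was above 1 for 7 members and below 1 for Igf2bp2. The shares of all genes were 25.8% and 45% (70.8% either way). Against empty vector P2, Lef1 P5 had it above 1 for 5 members and below 1 for Trim71, against 23.1% and 28% of all genes (51.1% either way).

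**Figure D4:**
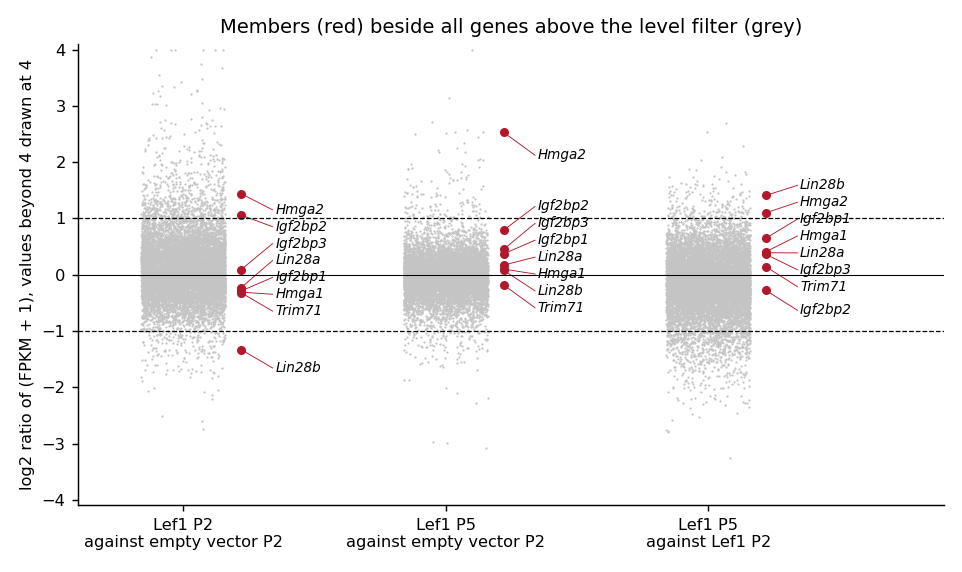
The log2 ratio of (FPKM + 1) in each comparison for the 8 members (red) and for all genes above the level filter (grey); dashed lines mark the 2-fold threshold, and values beyond 4 are drawn at 4. In Lef1 P5 against empty vector P2, Hmga2 sits at 2.53 with few genes above it, while the other 7 members lie between -0.18 and 0.79.

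In order of level, Hmga1 and Lin28a led with the empty vector, with overlapping intervals, followed by Trim71 and Igf2bp1, whose intervals also overlap, then by Igf2bp2, Igf2bp3, Hmga2 and Lin28b. In Lef1 P2, Igf2bp2 came first, and its interval overlaps that of Hmga1 and not that of Lin28a. Hmga1 is taken here without Hmga1b: with that copy added the pair was at 352 FPKM there, and it led in all 3 libraries. In Lef1 P5, Hmga1 and Lin28a led again, and Igf2bp2 (62.2 FPKM) and Hmga2 (61.9 FPKM) followed with overlapping intervals. Hmga2 thus stood ahead of Lin28b alone with the empty vector and next to Igf2bp2 with Lef1 at P5.

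Lef1 itself followed the labels, at 1.49 FPKM with the empty vector, 135 FPKM with Lef1 at P2 and 214 FPKM with Lef1 at P5. All 20 pluripotency marker genes were at 1 FPKM or more in every library, with a summed level of 6669 to 7373 FPKM. Dppa5a alone was at 3771, 3818 and 3816 FPKM, so the sum says little about the other genes. Tbx3 was called higher and Gdf3 lower with Lef1 at P2, and Nr0b1 and Gdf3 higher in Lef1 P5 against Lef1 P2. Endoderm markers moved with the libraries: 18 of 24 measured markers were called higher with Lef1 at P2 and 10 in Lef1 P5 against empty vector P2. Between the Lef1 libraries, 16 were lower with Lef1 at P5 and 0 higher. Over all genes, 6.49% were called higher and 1.82% lower with Lef1 at P2. The shares were 1.4% and 1.28% in Lef1 P5 against empty vector P2, and 1.88% and 6.86% in Lef1 P5 against Lef1 P2. The same shares stand beside the other marker lists. The 27 endoderm genes summed to 783 FPKM with the empty vector, 3171 FPKM with Lef1 at P2 and 1184 FPKM with Lef1 at P5. Afp and Ttr were at 0 in all. The endoderm sum and Igf2bp2 were highest, and Lin28b lowest, with Lef1 at P2, whereas Hmga2 was highest with Lef1 at P5. The part of endoderm-like cells in the members' levels was not tested. Formative and primed epiblast genes summed to 762 to 922 FPKM, with Cer1 at 0 throughout. Of 21 measured, 3 were called higher and 5 lower with Lef1 at P2, and 3 higher and 2 lower in Lef1 P5 against empty vector P2. Those higher were Otx2, Krt8 and Krt18 with Lef1 at P2, and Otx2, Lefty2 and Krt8 with Lef1 at P5. Krt8 and Krt18 are also in the endoderm list, and their calls are counted there too. Otx2 (9.26, 20.2 and 23.8 FPKM) and Lefty2 (20.7, 38.6 and 63.5 FPKM) were lowest with the empty vector and highest with Lef1 at P5, as was Hmga2. That order is not particular to epiblast genes. In the pluripotency list, Nanog (160, 167 and 176 FPKM), Sall4 (40.6, 51.2 and 57.9 FPKM), Prdm14 and Dppa3 had it too, uncalled, and most others did not. Tcf15 (78.1, 29.9 and 32.2 FPKM) and Pou3f1 (6.26, 2.29 and 2.27 FPKM) were called lower in both Lef1 libraries, and Sox4, Sox11 and Etv4 lower with Lef1 at P2. The medians of the epiblast list against empty vector P2 were -0.48 with Lef1 at P2 and -0.17 with Lef1 at P5. The part of any of these genes in the level of Hmga2 was not tested. Fibroblast and feeder-cell genes summed to 256 to 301 FPKM, with Postn, Lum and Prrx1 at 0 in every library. Of 7 measured, Twist1 was called higher with Lef1 at P2, Thy1 lower in Lef1 P5 against empty vector P2, and Vim higher and Twist1 lower between the Lef1 libraries. Neural genes summed to 37.9 to 57.2 FPKM, with Dcx at 0. Of 6 measured, Nes was called higher with Lef1 at P2, Neurod1 lower in both Lef1 libraries, and Msi1 lower in Lef1 P5 than in Lef1 P2. The fibroblast and neural lists are short, so their counts are a description.

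Of 19 measured microRNA processing genes, 0 were called in any comparison, where 8.31%, 2.69% and 8.74% of all genes were called. At those shares few or no calls are common in a list of this size, so the count sets the list apart in no way. The list had medians of -0.08 with Lef1 at P2 and -0.00 in Lef1 P5 against empty vector P2. Drosha, which cuts the primary transcript, was at 41.2, 47.6 and 46.5 FPKM with the empty vector, Lef1 P2 and Lef1 P5, and Dicer1, which cuts the hairpin, was at 20.2, 17.1 and 19.5 FPKM. The largest difference with Lef1 at P2 was that of Ran, a cofactor of hairpin export, at 433, 247 and 449 FPKM. Its log2 ratio of -0.81 is under the threshold.

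Genes listed for terminal uridylation and decay of the let-7 precursor were likewise not called, 0 of 6, a list too short to be read against the same shares of all genes. The terminal uridylyl transferase genes Tut4 and Tut7 were at 17.0, 14.5 and 11.5 FPKM and at 12.1, 14.2 and 10.9 FPKM, and Dis3l2, the exonuclease that degrades the tailed precursor, at 11, 10.1 and 8.26 FPKM. Levels of let-7 RNAs were not analysed here, and the tables hold 0 rows of let-7 genes.

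Other messages known as let-7 targets went both ways. Of 33 measured genes that are no member, 2 were called higher and 2 lower with Lef1 at P2, and 0 higher and 1 lower in Lef1 P5 against empty vector P2. Over all genes, 6.49% were higher and 1.82% lower with Lef1 at P2, and 1.4% and 1.28% in Lef1 P5 against empty vector P2. With few calls in the list, the counts are a description. The list medians (0.02 and -0.02) compare with 0.11 and -0.02 over all genes. Myc, the growth regulator that also activates Lin28b, was at 15.4 FPKM with the empty vector, 4.1 FPKM with Lef1 at P2 and 14.4 FPKM with Lef1 at P5. The G1 cyclin gene Ccnd1 was at 14.7, 3.79 and 15.3 FPKM. Both were called lower with Lef1 at P2 and higher in Lef1 P5 against Lef1 P2, as was Lin28b. The related cyclin gene Ccnd2 was highest with Lef1 at P2, at 0.49, 5.68 and 0.89 FPKM, and was called higher there. The matrix protein gene Thbs1 was called higher with Lef1 at P2 (1.15 to 3.55 FPKM), and the MAP kinase phosphatase gene Dusp9 was called lower with Lef1 at P5 (46.5 to 21.8 FPKM). Between the Lef1 libraries, the cyclin-dependent kinase gene Cdk6 was higher with Lef1 at P5 (9.52 against 3.85 FPKM) and the transcription factor gene Arid3a lower (3.77 against 8.69 FPKM).

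In the insulin-like growth factor system, whose ligand message gave the IGF2BP proteins their name, Igf2 and H19 were called higher in both Lef1 libraries, 2 of 10 measured genes with 0 lower. Over all genes, 6.49% were called higher with Lef1 at P2 and 1.4% in Lef1 P5 against empty vector P2. With a list this short, the count is a description. The growth factor gene Igf2 was at 3.23 FPKM with the empty vector, 15.9 FPKM with Lef1 at P2 and 13.0 FPKM with Lef1 at P5. The neighbouring noncoding RNA H19, which is known to bind let-7 in mouse and human cells, was at 1.07, 15.1 and 11.3 FPKM. The receptor genes Igf1r and Insr were at 5.50, 4.26 and 2.63 FPKM and at 3.05, 3.74 and 2.05 FPKM and were not called. Between the Lef1 libraries, the clearance receptor gene Igf2r (51.9 to 24.6 FPKM) and the binding protein gene Igfbp4 (8.80 to 3.80 FPKM) were called lower with Lef1 at P5.

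**Figure D5:**
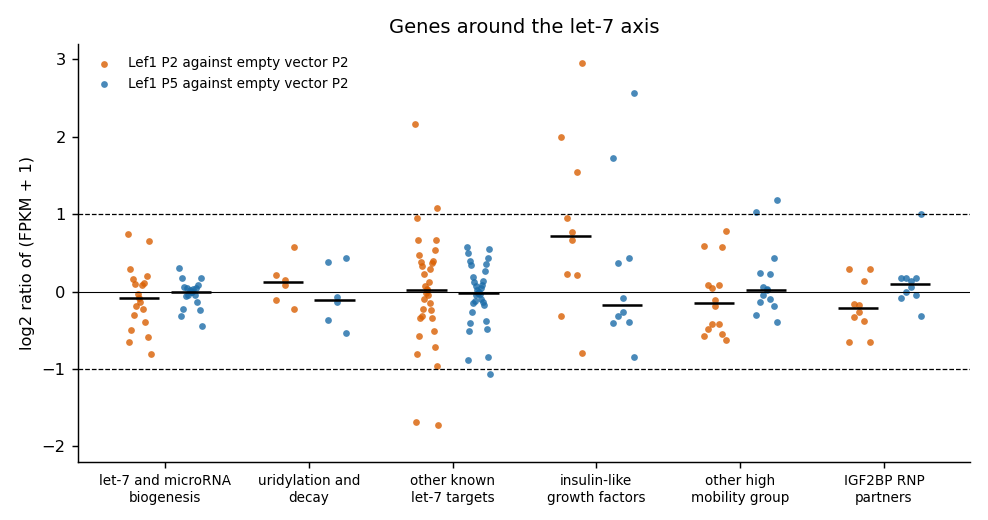
The log2 ratio of (FPKM + 1) for measured genes of 6 lists around the let-7 axis, without the members, with Lef1 at P2 (orange) and Lef1 P5 (blue) against the shared empty vector P2 library; each point is a gene, black bars are list medians and dashed lines mark 2-fold. No processing or uridylation gene passes a dashed line, and H19, at 2.96 and 2.57, is the highest point in both colours.

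Relatives of the members by protein type were mostly not called, as was true of all genes. The shares called over all genes were 8.31% in Lef1 P2 and 2.69% in Lef1 P5, each against empty vector P2. Between the Lef1 libraries the share was 8.74%. With lists this short, the counts below are a description. Of 14 other high mobility group genes, 0 were called with Lef1 at P2, and Hmgb3 (8.90 to 19.2 FPKM) and Hmgn3 (0.88 to 3.26 FPKM) were called higher with Lef1 at P5. Among 10 partners of IGF2BP in messenger ribonucleoproteins, known mainly from human cells, the RNA helicase gene Dhx9 was called higher with Lef1 at P5. It was at 61.9 FPKM with the empty vector, 47.4 FPKM with Lef1 at P2 and 125 FPKM with Lef1 at P5. Its log2 ratio in Lef1 P5 was 1.00 against empty vector P2, at the threshold, and 1.38 against Lef1 P2, also called higher. None of 15 genes for N6-methyladenosine, the RNA mark that IGF2BP proteins read, was called in the 3 comparisons. Of 5 other TRIM genes related to Trim71, Trim45 was lower with Lef1 at P5 than with Lef1 at P2 (1.85 against 5.59 FPKM). Of 5 measured cold shock domain genes, the germ-cell gene Ybx2 was higher with Lef1 at P2 (25.3 FPKM) than with the empty vector (10.8 FPKM) and Lef1 P5 (9.17 FPKM).

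Genes with the pattern most like a member were sought over the 3 libraries, by the distance between their pairs of log2 ratios to empty vector P2, among 10731 genes. Hmga2 had few close neighbours: the nearest was the zinc finger gene Zfp966, at a distance of 0.22 (0.60, 2.72 and 8.21 FPKM), and 1 gene in all lay within 0.25. The counts of Zfp966 were not whole. The distance uses the ratios in which Hmga2 was number 5 of 10121 genes with Lef1 at P5. Few neighbours follow from that place and are no further finding. After Zfp966 came Sh2d4b, Osm, Slc25a48 and 2210409E12Rik, at distances of 0.60 to 0.78 and with at most 10 expected reads each with the empty vector. Lin28b had 27 genes within 0.25, led by Omd (86.6, 34.6 and 90.3 FPKM), Gm15645 and Tenm4 (5.88, 1.85 and 6.21 FPKM). The counts of Omd and Gm15645 were not whole either. Igf2bp2 had 72 genes within 0.25, led by Galnt12 (3.26, 8.09 and 6.45 FPKM), Ciart and Mtmr11. With 3 libraries such likeness is a description of size and order.

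Letters of the kind that TCF/LEF proteins bind (any of CTTTGAA and also CTTTGAT and also CTTTGTA and also CTTTGTT, on either strand) were sought from 250 bases before to 50 after the start of each gene in RefSeq promoters (GRCm38.p6). Of the 7 members with a promoter in the table, Lin28a alone held a match, and 16.9% of all 32851 promoters held at least 1. No match says only that these letters are not in this window. The match of Lin28a, at chr4:134018871-134018899 on the minus strand, is shown in capitals because Lef1 is the factor introduced; Lin28a itself was not called in any comparison.
Lin28a promoter: aatttgggagcCTTTGAAaagccgtgggc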

How the data were processed

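Per the file headers, each of the 3 libraries has a gene table keyed by Entrez number; the expected count, FPKM and length columns were used as the authors deposited them. Bowtie 0.12.2 and build mm8 are named in the submitters' processing notes. The sources used here do not give the counting program or the use of strand. A gene missing from a table was taken as 0. The deposited expected counts summed to 9225401 for the empty vector, 9170554 for Lef1 P2 and 9380813 for Lef1 P5, where 3 reads on 1 kb amount to 0.320 to 0.327 FPKM. About 8.49% to 8.61% of the deposited expected counts were not whole (tolerance 0.005). Amplified reads are not independent molecules.

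Symbols came from RefSeq GRCm38.p6 through the Entrez numbers (17951 of 17997 matched); since the files use mm8, no coordinate was joined to the deposited values. The GRCm38.p6 and GRCm38 coordinates printed belong to the sequences alone. Ratios are log2((x + 1)/(y + 1)) of FPKM, which understates changes of low genes. Folds are plain FPKM ratios with exact conditional intervals, and levels have exact Poisson intervals, at 95%. Genes reaching 1 FPKM count as measured. Calls and intervals were tested on counts simulated with counting error alone, so differences between cultures were not covered. The calls were tested for genes with at least 10 FPKM in the second library of a comparison. With the empty vector, Hmga2 (9.86 FPKM) and Lin28b (6.60 FPKM) lay below that level. edgeR 4.0.16 gave only the TMM factors; Python 3.11.15 and scipy 1.17.1 did the rest.

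The members and lists were chosen with earlier results of these data known. The genes named were the members, Lef1, up to 3 called genes per list and direction, genes whose role is explained in the let-7, growth factor and relative lists, and the genes nearest to each called member (5 for Hmga2, 3 for the others). Hmga1b, Hmga2-ps1 and the marker genes named were added after their values were seen.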

Additional observations from a re-analysis of the deposited data

How the results depend on the processing

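No paired analysis was possible because each group has 1 library, and no replicate could be left out. Of 120 member ratios under pseudocounts of 0.1 and 5, CPM (counts scaled to library size, without length), median-of-ratios and TMM, 115 stayed on their side of the 2-fold threshold. Most of the 120 were of ratios not called as deposited, and the 5 that changed side were all of called ratios. Hmga2 stayed called under each of these pseudocounts and scalings. Its log2 ratios were 1.17 to 1.52 in Lef1 P2, 2.17 to 2.64 in Lef1 P5 and 1.00 to 1.29 between the Lef1 libraries. Igf2bp2 in Lef1 P2 fell under the threshold with a pseudocount of 5 (0.98), median-of-ratios (0.91) and TMM (0.91). Lin28b did so with a pseudocount of 5, at -0.72 in Lef1 P2 against empty vector P2 and 0.78 in Lef1 P5 against Lef1 P2, as that pseudocount is close to its level. The setting of at least 10 FPKM was not applied to the members, and Lin28b reached at most 7.04 FPKM. The sign of Igf2bp3 in Lef1 P2 changed with both scalings (-0.06).

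The number of genes called in all depended on the settings. For Lef1 P2 against empty vector P2 it was 885, and 328 with a pseudocount of 5, 478 with at least 10 FPKM, 1506 with CPM, 2719 at 1.5-fold and 115 at 4-fold. For Lef1 P5 against empty vector P2 it was 272, and 414 and 67 with pseudocounts of 0.1 and 5, 116 with at least 10 FPKM, 545 with CPM, 1038 at 1.5-fold and 24 at 4-fold. For Lef1 P5 against Lef1 P2 it was 926, and 281 with a pseudocount of 5, 503 with at least 10 FPKM, 1547 with CPM, 2961 at 1.5-fold and 47 at 4-fold. Scaling moved the split: with median-of-ratios and TMM, 62.6% and 62.5% of the calls in Lef1 P2 against empty vector P2 were higher, against 78.1% as deposited, and in Lef1 P5 against Lef1 P2 44.8% and 43.4%, against 21.5%.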

Other observations

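Over all genes with a 3′ UTR and above the level filter, those with let-7 seed matches were set beside those without, leaving out the 8 members. In Lef1 P2 against empty vector P2, 9229 genes without CTACCTC had a median log2 ratio of 0.09, 947 genes with 1 match had 0.12, 109 genes with 2 matches had 0.21 and 19 genes with 3 or more had 0.04. In Lef1 P5 against empty vector P2 these medians were -0.02, -0.03, -0.02 and -0.04, the last again over 19 genes. In Lef1 P5 against Lef1 P2 they were -0.14, -0.19, -0.26 and -0.20, the last over 18 genes. Of the genes without a match, 6.35% were called higher and 1.81% lower in Lef1 P2, and 1.39% and 1.33% in Lef1 P5, against empty vector P2. Beside these shares, 0 and 1 calls among the 19 genes with 3 or more matches do not set that class apart. The UTRs differ in length between these classes, with medians of 1023, 2160, 3483 and 4453 bases in the first comparison, and the part of length in these medians was not tested.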
